A study of Macaca mulatta with 51 samples.

Results

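The genes described here are 9 genes of T cells: the receptor chains CD3D, CD3E, CD3G and CD247, the surface proteins CD2 and CD8A, the kinases LCK and ZAP70, and the cytokine receptor chain IL7R. They were taken by symbol, as genes known from T cells. The count table had rows for 8 of the 9 among its 16033 genes, and CD3E was not analysed here. All 8 were followed in subcutaneous adipose tissue (AT) and gastrocnemius skeletal muscle (SM) of diet-induced obese (DIO) rhesus macaques before, during and after treatment with FGF21, a hormone that lowers body weight.

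T cells recognize antigen through the T cell receptor, whose signal is carried into the cell by the CD3 chains and the zeta chain CD247. LCK phosphorylates these chains, and ZAP70 then binds them and passes the signal on to adaptor proteins. CD8A marks cytotoxic T cells, CD2 is an adhesion receptor, and IL7R receives the survival signal of interleukin-7. T cells live in adipose tissue beside macrophages and natural killer (NK) cells, and several of these genes, among them CD2, CD8A, CD247, LCK and ZAP70, are also used by NK cells or other lymphocytes.

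The cohort held 5 male and 5 ovariectomized female rhesus macaques, 11 to 22 years old, which had been fed a high-fat diet for 2 years or longer. Every animal received native human FGF21 by daily subcutaneous injection for 12 weeks, with the dose raised from 10 to 1000 ug/kg/day, except for 1 animal held at 300 ug/kg/day. Biopsies were taken pre-treatment, at the end of the 12 weeks (post-treatment) and after 16 weeks without FGF21 (washout). RNA sequencing gave 27 AT libraries of 10 animals (10 pre-treatment, 9 post-treatment, 8 washout) and 21 SM libraries of 8 animals (6, 8 and 7). The high-fat diet and the FGF21 course were common to all animals, and there was no untreated arm, so that the treatment cannot be told apart from the passage of time. The paper reports that body weight fell under treatment and returned to baseline in the washout period. Effects of FGF21 and of these weight changes cannot be told apart either. The pre-treatment biopsy of the same animal served as the control in AT. In SM, animals 20456 and 21866 had no pre-treatment library with counts. This left 6 animals with both a pre-treatment and a post-treatment SM library.

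Total counts ranged from 15756491 to 23940980 per AT library and from 14455195 to 21740711 per SM library. The labelled tissues carried their own markers: the summed level of 9 myofiber genes was at most 187 CPM (read counts scaled to a common total per library) in AT and at least 57086 CPM in SM, and that of 6 adipocyte genes was at least 9897 CPM in AT and at most 1825 CPM in SM. The SM library with the fewest myofiber counts was the post-treatment library of animal 21189, which also had the most macrophage counts of its group (604 CPM against a median of 174 CPM). A gene was tested in a tissue when 10% or more of the tissue's libraries reached 0.5 CPM. It was called differentially expressed (DE) when its false discovery rate (FDR) was under 0.05 and its log2 fold change was above 0.26 or below -0.26, in an edgeR quasi-likelihood fit of time point and animal.

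All 8 T cell genes were tested in AT, and every one of them was low, at medians of 0.827 to 5.27 CPM over the 3 time points. Each was fitted higher post-treatment than pre-treatment, with a median log2 fold change of 0.42 against 0.03 over all 13367 genes tested. A single one, CD8A, passed the test, while 14.5% of all genes were called in this comparison. At washout compared to post-treatment, 1 of 8 was called, again CD8A, against 34.0% of all genes. At washout compared to pre-treatment, 1 of 8 was called, ZAP70, against 19.8% of all genes. These counts lie near the shares of all genes or under them, and the 3 comparisons share libraries. In whole tissue, fewer T cells and less RNA per T cell cannot be told apart.

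**Figure D1:**
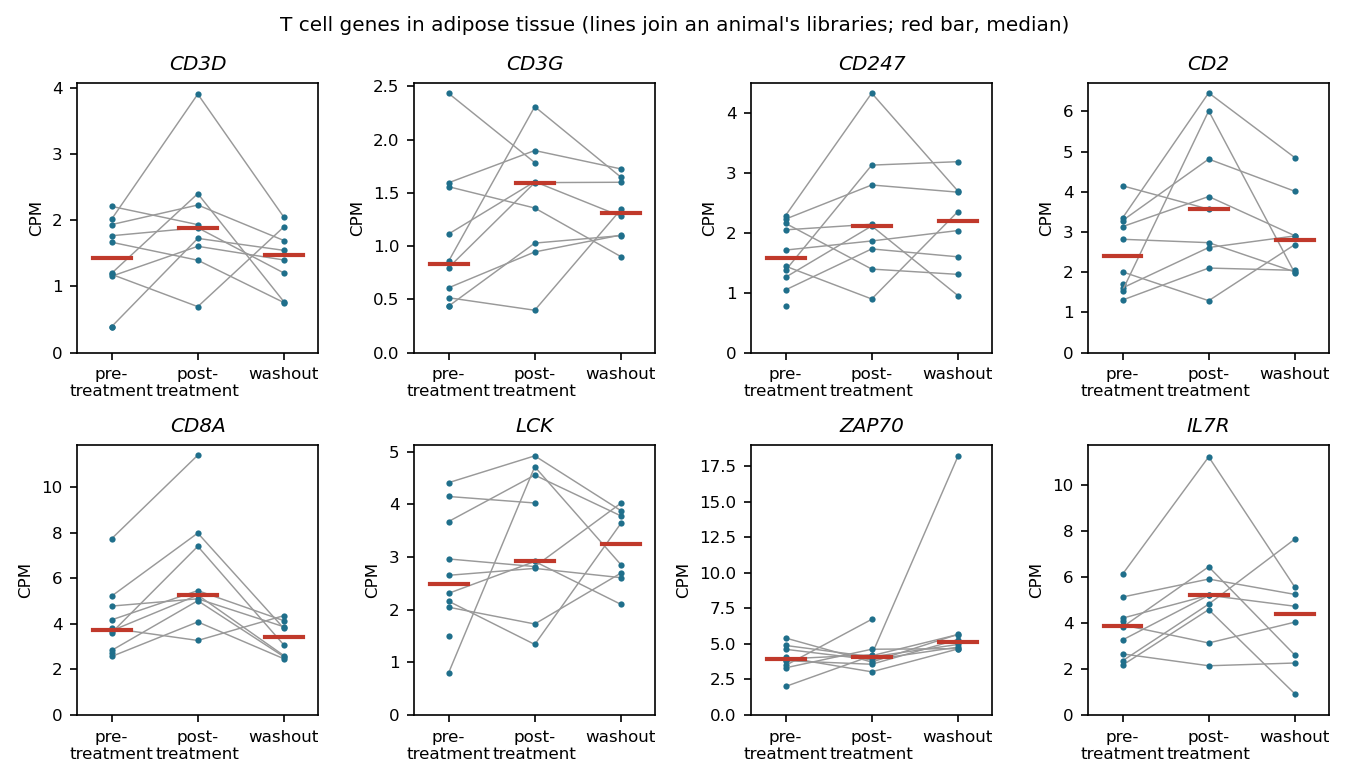
Level of each T cell gene in AT (vertical axis, CPM) by time point (horizontal axis), with 1 point per library, grey lines joining the libraries of an animal and a red bar at the median. CD8A had its highest median post-treatment, 5.27 CPM, and ZAP70 had its highest median at washout, 5.13 CPM, where 1 library reached 18.2 CPM.

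CD8A encodes the alpha chain of the co-receptor CD8. Its level in AT ran from 2.57 to 7.74 CPM pre-treatment with a median of 3.75 CPM, from 3.28 to 11.4 CPM post-treatment with a median of 5.27 CPM, and from 2.47 to 4.37 CPM at washout with a median of 3.44 CPM. The post-treatment libraries lay highest as a group, the washout libraries lowest, and the ranges of all 3 time points overlapped. Animal 20456 had the highest library both pre-treatment and post-treatment.

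Post-treatment, CD8A rose by a log2 fold change of 0.52 (SE 0.14, edgeR adjusted p = 0.0244), or 1.43-fold, and it was higher in 8 of the 9 animals sampled at both times. It fell by 0.69 on the log2 scale at washout (SE 0.15, edgeR adjusted p = 0.00198), with 7 of 8 animals lower. Washout and pre-treatment did not differ by the test (log2 fold change -0.18, SE 0.15, edgeR adjusted p = 0.443). Of the 8 animals with all 3 time points, 7 had their highest CD8A level post-treatment. The number was 6 for CD3D, 5 each for CD2, LCK and IL7R, 4 for CD247, 3 for CD3G and 0 for ZAP70.

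The rise of CD8A was the less stable of its 2 calls. Without the animal term its log2 fold change was 0.57 and its edgeR adjusted p 0.0842, and the call was also lost when animal 20261, 20275, 21189 or 22130 was left out (0.44 to 0.50, edgeR adjusted p of 0.0588 to 0.0710). Libraries carry identifiers of 3 series whose meaning is not given in the sources used here. Among the 6 animals whose pre-treatment and post-treatment AT libraries were both of the last series, the mean change was 0.56 (SD 0.32) with 6 of 6 higher, and among the 2 of the middle series it was 0.17 (SD 0.54) with 1 of 2 higher. For washout against post-treatment, the 3 animals with both libraries in the last series changed by -0.86 (SD 0.43) on average, and the other 5 had libraries of mixed series (-0.55, SD 0.59).

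CD3D, CD3G and CD247 are the signalling chains that accompany the T cell receptor. CD3D ran from 0.389 to 2.21 CPM pre-treatment with a median of 1.43 CPM, from 0.695 to 3.91 CPM post-treatment with a median of 1.89 CPM, and from 0.756 to 2.05 CPM at washout with a median of 1.47 CPM. Animal 21189 had the highest library post-treatment and at washout, and the groups overlapped. The log2 fold change was 0.39 post-treatment (SE 0.28, edgeR adjusted p = 0.338) with 6 of 9 animals higher. At washout it was -0.39 against post-treatment (SE 0.29, edgeR adjusted p = 0.311) and 0.00 against pre-treatment (SE 0.26, edgeR adjusted p = 0.998). These libraries held 8 to 66 reads of CD3D each, so that counting error is part of the spread.

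CD3G ran from 0.435 to 2.43 CPM pre-treatment with a median of 0.827 CPM, from 0.397 to 2.31 CPM post-treatment with a median of 1.60 CPM, and from 0.901 to 1.72 CPM at washout with a median of 1.31 CPM. The washout libraries were the closest together and lay within the range of the other groups. None of its changes passed the test: 0.44 post-treatment (SE 0.25, edgeR adjusted p = 0.229), 0.10 from post-treatment to washout (SE 0.26, edgeR adjusted p = 0.791) and 0.54 from pre-treatment to washout (SE 0.27, edgeR adjusted p = 0.167), the last higher in 7 of 8 animals. CD247 ran from 0.777 to 2.28 CPM pre-treatment with a median of 1.57 CPM, from 0.893 to 4.33 CPM post-treatment with a median of 2.11 CPM, and from 0.951 to 3.18 CPM at washout with a median of 2.19 CPM. Its highest library was post-treatment, the groups overlapped, and its log2 fold changes were 0.33 (SE 0.22), -0.07 (SE 0.23) and 0.26 (SE 0.23) in the same order, none of them called. CD3D was thus fitted lower at washout than post-treatment, while CD3G and CD247 were within 0.10 of no change, and whether these genes differ from each other was not tested.

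CD2, which binds CD58 on other cells, ran from 1.31 to 4.15 CPM pre-treatment with a median of 2.41 CPM, from 1.29 to 6.46 CPM post-treatment with a median of 3.57 CPM, and from 1.98 to 4.85 CPM at washout with a median of 2.79 CPM. Animal 21189 was highest post-treatment and at washout, and the groups overlapped. Post-treatment its log2 fold change was 0.50 (SE 0.22), as large as that of CD8A, but its larger error left it uncalled (unadjusted p = 0.0358, edgeR adjusted p = 0.122), with 6 of 9 animals higher. At washout it was -0.24 against post-treatment (SE 0.23) and 0.26 against pre-treatment (SE 0.23), and neither was called.

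IL7R, the receptor chain for interleukin-7 that naive and memory T cells carry, ran from 2.16 to 6.11 CPM pre-treatment with a median of 3.86 CPM, from 2.14 to 11.2 CPM post-treatment with a median of 5.19 CPM, and from 0.920 to 7.63 CPM at washout with a median of 4.38 CPM. Post-treatment the library of animal 21189 stood well above the next at 6.43 CPM, the washout group held the lowest library, and the groups overlapped. The log2 fold change was 0.50 post-treatment (SE 0.24, unadjusted p = 0.0559, edgeR adjusted p = 0.161), with 7 of 9 animals higher. It was -0.41 from post-treatment to washout (SE 0.26) and 0.09 from pre-treatment to washout (SE 0.26), and neither passed the test.

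LCK, the kinase that starts the signal of the T cell receptor, ran from 0.800 to 4.41 CPM pre-treatment with a median of 2.48 CPM, from 1.34 to 4.92 CPM post-treatment with a median of 2.91 CPM, and from 2.10 to 4.02 CPM at washout with a median of 3.25 CPM. The 3 groups overlapped, and the pre-treatment group held the lowest library. Its log2 fold changes of 0.25 (SE 0.24) post-treatment, 0.06 (SE 0.24) from post-treatment to washout and 0.31 (SE 0.25) from pre-treatment to washout did not pass the test.

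ZAP70, the kinase that binds the phosphorylated CD3 and zeta chains, followed another course. It ran from 2.01 to 5.41 CPM pre-treatment with a median of 3.92 CPM, from 3.04 to 6.73 CPM post-treatment with a median of 4.09 CPM, and from 4.64 to 18.2 CPM at washout with a median of 5.13 CPM. The first 2 groups overlapped broadly, and the lowest washout library was above the medians of both. The washout library of animal 22130, with 331 reads of ZAP70, was far above the next library at 5.67 CPM, and in the same library CD2 and CD8A were the lowest of the 8, CD247 the highest (3.18 CPM) and CD3G the second highest (1.65 CPM).

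ZAP70 did not differ between pre-treatment and post-treatment by the test (log2 fold change 0.09, SE 0.22, edgeR adjusted p = 0.824). It was called higher at washout than pre-treatment, by 0.68 (SE 0.23, edgeR adjusted p = 0.0444), with 8 of 8 animals higher. Against post-treatment it was 0.59 higher (SE 0.23, edgeR adjusted p = 0.0564), also in 8 of 8 animals, which did not pass the threshold in edgeR and passed it in DESeq2 (0.60, adjusted p = 0.0302).

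The call at washout rested in part on 1 library. Without the washout AT library of animal 22130 the log2 fold change from pre-treatment was 0.43 (edgeR adjusted p = 0.113), and the remaining 7 washout libraries ran from 4.64 to 5.67 CPM. It was lost as well when animal 20261, 20275, 20456, 23004 or 24849 was left out (0.59 to 0.75, edgeR adjusted p of 0.0574 to 0.108) and with the identifier series as a covariate (0.71, edgeR adjusted p = 0.0573). In the 3 animals whose pre-treatment and washout libraries were both of the last series, the mean change was 0.04 (SD 0.02). In the 4 animals with libraries of mixed series it was 0.65 (SD 0.55), and animal 22130, the only one with both in the middle series, changed by 2.17. The part of the series in this difference was not tested further.

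**Figure D2:**
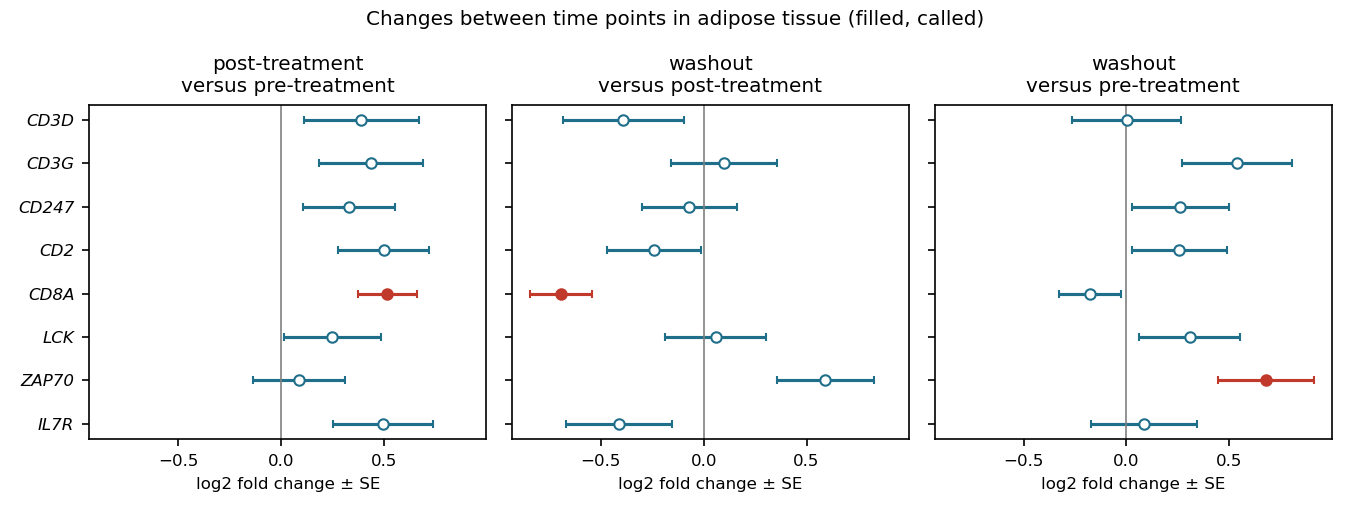
Log2 fold change (horizontal axis, bars of 1 SE) of each T cell gene (vertical axis) for the 3 comparisons of time points in AT, with called genes filled in red. CD8A was called post-treatment (0.52) and from post-treatment to washout (-0.69), and ZAP70 from pre-treatment to washout (0.68).

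Macrophage and general leukocyte genes moved with the time points in AT, and more of their genes passed the test. Of all genes, 6.53% rose post-treatment, 17.4% fell from post-treatment to washout and 7.80% were lower at washout than pre-treatment. Of 18 macrophage genes, 7 rose and 0 fell post-treatment, and 18 of 18 fell from post-treatment to washout, with median log2 fold changes of 0.92 and -1.73. Their summed level had a median of 3526 CPM pre-treatment (1688 to 5823 CPM), 7564 CPM post-treatment (3668 to 14955 CPM) and 1630 CPM at washout (1032 to 5392 CPM), and no gene of the list was at 0. GPNMB, a glycoprotein of lipid-laden macrophages, rose by 1.41 (SE 0.36, edgeR adjusted p = 0.0173) and then fell by 2.18 on the log2 scale (SE 0.39, edgeR adjusted p = 0.000379). Of 11 pan-leukocyte genes, 2 rose post-treatment and 9 fell at washout, with medians of 1.0 and -1.63. The pan-leukocyte count post-treatment ranged from 1 to 6 under other settings, and when an animal was left out it was 6 without animal 20456, 5 without 23004, 2 without 19832 and 1 without each of the other animals. The number of macrophage genes called post-treatment ranged from 0 (without animal 22130) to 10 (without animal 23004) when an animal was left out and from 1 to 12 under the other settings, whereas 17 or 18 were called lower at washout in each of these. The post-treatment number was 1 without animal 20275, 21189 or 26292, 3 without animal 24849 and 4 without animal 20261. CD8A moved in the same direction as these lists at both steps, and their part in its change was not tested. At washout compared to pre-treatment, 9 macrophage genes were called lower and 0 higher, with a median of -0.82 (3 to 16 lower under other settings, 6 to 9 without an animal). Of the 8 T cell genes, 7 were fitted higher and 1 was called, with a median of 0.26 over the 8. CD3D (0.00) and IL7R (0.09) were higher in 4 of 8 animals each, and both turned direction under other settings.

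**Figure D3:**
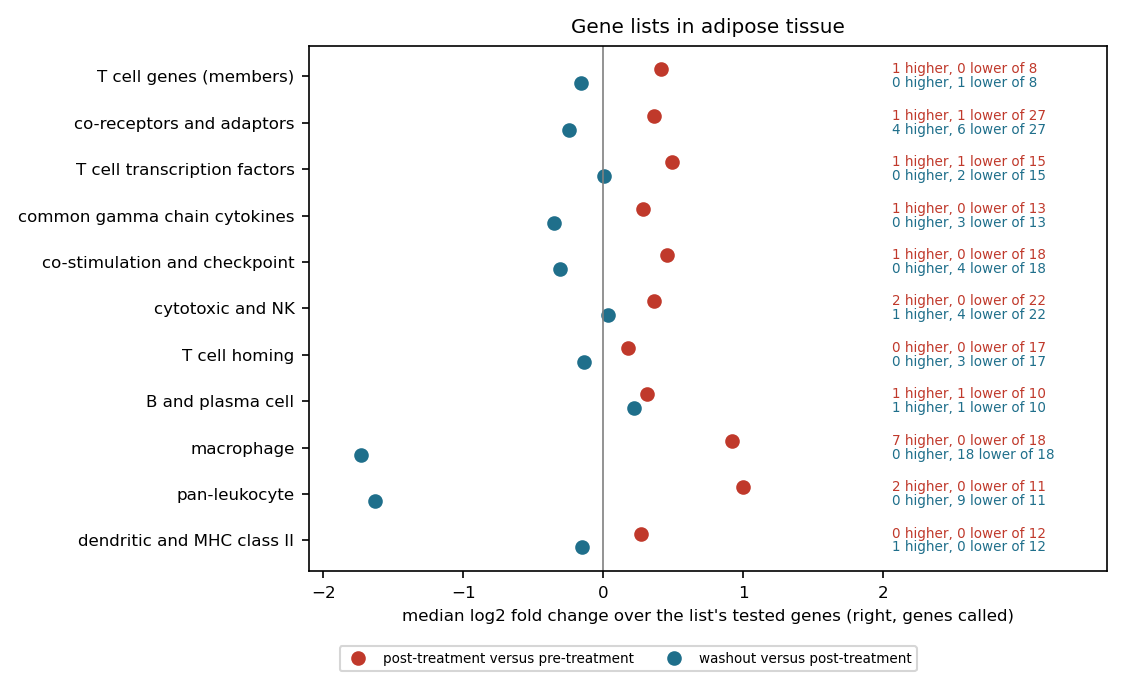
Median log2 fold change in AT (horizontal axis) over the tested genes of each list (vertical axis), post-treatment against pre-treatment in red and washout against post-treatment in blue, with the number of genes called at the right. The 8 T cell genes had medians of 0.42 and -0.16, and the 18 macrophage genes 0.92 and -1.73.

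Genes that work with the T cell genes gave few calls post-treatment, where 14.5% of all genes were called. Of 27 tested co-receptors and adaptors of the T cell receptor, 1 rose and 1 fell, with a median of 0.36, while 12 had an unadjusted p under 0.05 and DESeq2 called 4 higher and 1 lower. The one that rose was SKAP1, an adaptor for integrin activation in T cells (log2 fold change 0.81, SE 0.21, edgeR adjusted p = 0.0208), and the one that fell was CD6, a surface receptor of T cells (-0.61, SE 0.14, edgeR adjusted p = 0.0121). Of 15 transcription factors of T cells, 1 rose (BACH2, 0.64, SE 0.16) and 1 fell (ZBTB7B, -0.50, SE 0.13), with a median of 0.49. Among 13 genes of the cytokines that share the common gamma chain, SOCS1, an inhibitor of cytokine signalling, rose (0.89, SE 0.24), and the median was 0.29. Among 18 co-stimulation and checkpoint genes, PDCD1LG2, a ligand of PD-1, rose (0.45, SE 0.15), and the median was 0.46. SKAP1, PDCD1LG2 and SOCS1 each lost their call without animal 20275 or 21189, among others, ZBTB7B without animal 20275 and BACH2 without animal 22130. Of 17 homing genes edgeR called 0 (3 at an unadjusted p under 0.05, and DESeq2 also called 0), with a median of 0.18.

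Cytotoxic and NK genes were of interest beside CD8A. Of 22 tested, 2 rose and 0 fell post-treatment, with a median of 0.37, where 14.5% of all genes were called. GZMK, a granzyme of cytotoxic lymphocytes, rose from 1.66 ± 1.34 CPM (SD, n = 10) to 3.63 ± 2.60 CPM (SD, n = 9), a log2 fold change of 1.09 (SE 0.30, edgeR adjusted p = 0.0232), and NCAM1, an NK marker that nerve and muscle also express, rose by 0.68 (SE 0.19, edgeR adjusted p = 0.0254). GZMK lost its call without animal 20275, 21189 or 22130 and without the animal term, and NCAM1 without animal 20275 or 20456, so that without animal 20275 neither was called. From post-treatment to washout 1 of the 22 rose and 4 fell, where 34.0% of all genes were called. The one that rose was CD160, a receptor of NK and cytotoxic T cells, by 1.25 (SE 0.27, edgeR adjusted p = 0.00169), and it was also above pre-treatment (1.14, SE 0.26, edgeR adjusted p = 0.00390).

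From post-treatment to washout, 4 of the 27 co-receptor and adaptor genes rose and 6 fell, near the 34.0% of all genes called. The largest falls were those of CD8B, the beta chain that pairs with CD8A (-2.18, SE 0.57, edgeR adjusted p = 0.00619), of CD4 (-1.71, SE 0.30, edgeR adjusted p = 0.000370) and of VAV1 (-1.16, SE 0.32, edgeR adjusted p = 0.00888). CD4 and VAV1 are also expressed by macrophages. CD8B had 29.7 ± 17.6 CPM (SD, n = 9) post-treatment and 11.6 ± 18.7 CPM (SD, n = 8) at washout. At these time points CD8A had lower means, of 6.11 and 3.36 CPM, and why these chains differ in level was not tested. The call of CD8B was lost without the animal term. CD8A and CD8B are neighbours in the RefSeq annotation of T2T-MMU8v2.0. In the same comparison 2 of 15 transcription factors, 3 of 13 gamma chain cytokine genes, 4 of 18 co-stimulation genes and 3 of 17 homing genes fell and 0 rose. Of all genes 17.4% fell and 16.6% rose, and the shares of these lists that fell lay on either side of the former. At washout compared to pre-treatment, 3 of the 27 co-receptor and adaptor genes were higher and 1 lower, against 19.8% of all genes called. The lower one was CD4 (-0.90, SE 0.29, edgeR adjusted p = 0.0361). LAT, the membrane adaptor that ZAP70 phosphorylates, was called higher at washout than pre-treatment (0.83, SE 0.17, edgeR adjusted p = 0.00143), as was PLCG1, an enzyme that acts downstream of both (0.80, SE 0.15, edgeR adjusted p = 0.000619). Over the AT libraries, less time point means, ZAP70 had a median Pearson's r of -0.06 with this list and 0.39 with the endothelial genes. Whether the changes of ZAP70, LAT and PLCG1 are linked was not tested.

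Markers of other cells were also counted in AT post-treatment, where 14.5% of all genes were called. Of 10 B cell and plasma cell genes 1 rose and 1 fell, and 1 of 9 neutrophil genes, 1 of 7 mast cell genes, 1 of 6 erythroid genes and 2 of 6 adipocyte genes fell. In the latter 4 lists no gene rose by edgeR or by DESeq2. In the dendritic and MHC class II, lymphoid tissue, myofiber and endothelial lists edgeR and DESeq2 called 0 of 12, 5, 9 and 9 genes, of which 3, 0, 0 and 1 had an unadjusted p under 0.05. At washout compared to post-treatment, 3 of the 6 erythroid genes and 4 of the 9 endothelial genes rose and 0 fell in either list. Of all genes 16.6% rose and 17.4% fell in this comparison. The erythroid count was 0 with voomWithQualityWeights, without the animal term and without animal 21189 or 23004, and 1 without animal 20456, 21866 or 22130. The summed level of the erythroid genes in AT ranged from 327 to 11991 CPM over all libraries, with medians of 2678 CPM pre-treatment, 852 CPM post-treatment and 5109 CPM at washout. The part of these cell types in the values of the T cell genes was not tested.

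Within AT, some of the T cell genes moved together from library to library more closely than others. After the mean of each time point was removed, the 10 pairs among CD3D, CD3G, CD247, CD2 and LCK had Pearson's r of 0.57 to 0.82 over the 27 libraries, with a median of 0.70. CD8A had a median r of 0.26 with the other genes, IL7R of 0.28 and ZAP70 of 0.01. The single r of CD8A were 0.45 with CD3D, 0.44 with CD3G and 0.43 with LCK. They were 0.26 with CD2, 0.18 with CD247, 0.09 with IL7R and -0.02 with ZAP70. With the lists, CD8A had a median r of 0.37 for macrophage, 0.35 for pan-leukocyte and 0.18 for co-receptor and adaptor genes. For the mean of CD3D and CD3G these medians were 0.20, 0.25 and 0.40. These are descriptions over libraries that share animals and normalization. In SM, where counts were few, the same 10 pairs ran from -0.18 to 0.70.

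**Figure D4:**
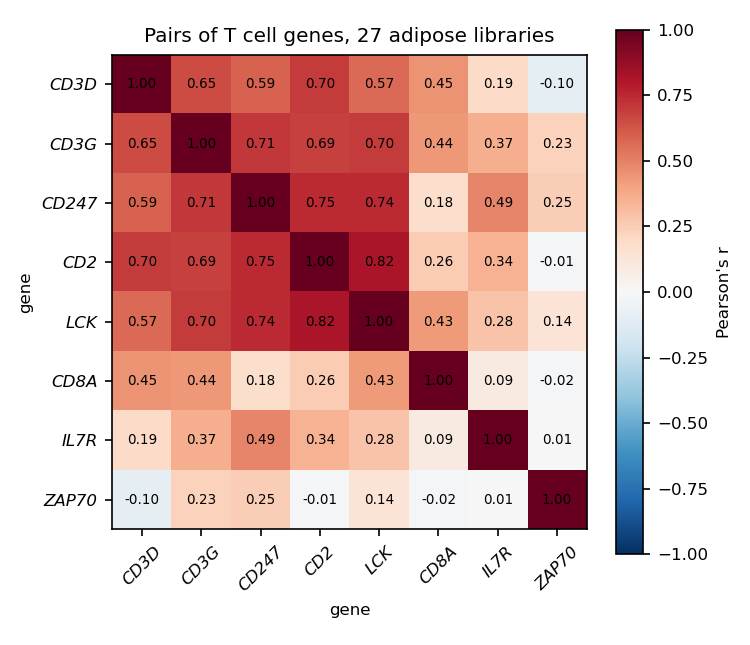
Pearson's r (colour and number) between log2 CPM of each pair of T cell genes (both axes) over 27 AT libraries, less the mean of each time point. The block of CD3D, CD3G, CD247, CD2 and LCK ran from 0.57 to 0.82, and the row of ZAP70 from -0.10 to 0.25.

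Across the 10 animals pre-treatment, whose libraries are among the 27, the genes were compared with CD3D, because CD3E was not analysed here. CD247 (Pearson's r = 0.916, Spearman's rho = 0.842) and CD2 (r = 0.825, rho = 0.842) passed a permutation test adjusted over 7 genes (adjusted p for r of 0.00105 and 0.00406, and for rho of 0.0122 for both). Leaving out the 2 animals farthest from the median of CD3D gave r of 0.846 and 0.954. LCK passed by rank (rho = 0.818, permutation adjusted p = 0.0130) and not by r (0.577, permutation adjusted p = 0.145), and CD3G likewise (rho = 0.709, permutation adjusted p = 0.0465, and r = 0.689, permutation adjusted p = 0.0637, which was 0.424 without the 2 animals). CD8A (r = 0.355, rho = 0.273), IL7R (r = 0.240, rho = 0.248) and ZAP70 (r = 0.121, rho = 0.188) did not pass the permutation test by either measure, with adjusted p of 0.434 or more for r. Without the 2 animals r was 0.480 for ZAP70 and 0.399 for CD8A, close to that of CD3G, and 0.752 for LCK and 0.0783 for IL7R.

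Outside the 8 genes, the 10 tested genes most like the mean of CD3D and CD3G over the 27 AT libraries included CXCR3 (r = 0.731), APOBEC3F (0.727), UBASH3A (0.716), CCL15 (0.707), MMP25 (0.703), RARRES3 (0.700), CD27 (0.683), CD28 (0.679) and IFITM2 (0.674). CXCR3 is a chemokine receptor of activated T cells, UBASH3A a regulator of T cell receptor signalling, and CD27 and CD28 co-stimulatory receptors. Of the T cell genes not used as reference, CD2 had r = 0.761, CD247 0.714 and LCK 0.696. CD8A had 0.488 and ranked 171 of 13359 genes, IL7R had 0.306 and ranked 1206, and ZAP70 had 0.07 and ranked 5162. The genes most like ZAP70 in AT were AFAP1L1 (0.669), ROS1 (0.650) and TSPAN32 (0.644). CD3D, CD3E and CD3G are neighbours in the RefSeq annotation of T2T-MMU8v2.0, an assembly other than the one the reads were aligned to.

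In SM the T cell genes other than ZAP70 were close to the limit of detection. CD3D, CD3G and CD247 did not pass the filter: over the 21 libraries CD3D had 0 to 12 reads, CD3G 0 to 12 and CD247 1 to 23, and CD3D was at 0 in 4 libraries and CD3G in 5. A count of 0 allows a level of up to 0.138 to 0.208 CPM, depending on the depth of the SM library (3 counts, counting error only). CD2, CD8A, LCK, ZAP70 and IL7R were tested. None of these 5 was called post-treatment, where edgeR called 0% of all genes, at washout against post-treatment (0.135% of all genes) or at washout against pre-treatment (0.0238%). Of the 5 genes, 1 had an unadjusted p under 0.05 post-treatment, 0 from post-treatment to washout and 1 from pre-treatment to washout, and DESeq2 called 0 in each. The biological coefficient of variation left after the animal and time point terms was 0.356 in SM and 0.248 in AT.

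Of the 5 genes tested in SM, IL7R had the largest changes from pre-treatment. It ran from 0 to 0.513 CPM pre-treatment with a median of 0.137 CPM, from 0.123 to 1.17 CPM post-treatment with a median of 0.574 CPM, and from 0.276 to 1.44 CPM at washout with a median of 0.423 CPM. The pre-treatment libraries were lowest as a group and overlapped with the others, and all of them together held 23 reads of the gene. The log2 fold change from pre-treatment was 1.33 post-treatment (SE 0.62, unadjusted p = 0.0482, not called by edgeR) and 1.59 at washout (SE 0.62, unadjusted p = 0.0212, edgeR adjusted p = 0.328).

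CD2 in SM ran from 0 to 0.474 CPM pre-treatment with a median of 0.296 CPM, from 0.226 to 1.37 CPM post-treatment with a median of 0.434 CPM, and from 0 to 0.341 CPM at washout with a median of 0.264 CPM. Its CPM was lower at washout than post-treatment in 7 of 7 animals, by a log2 fold change of -1.20 that missed the threshold (SE 0.63, unadjusted p = 0.0740, edgeR adjusted p = 0.363). The washout libraries together held 22 reads of CD2. Animals 20456 and 22130 went from 5 to 6 and from 4 to 5 reads, so that their lower CPM came from the scaling. CD8A had medians of 0.292, 0.355 and 0.284 CPM in the 3 groups, and its highest library, 1.88 CPM, was the post-treatment library of animal 21189 with the low myofiber counts. LCK had medians of 0.239, 0.235 and 0.482 CPM, with a highest library of 1.96 CPM in animal 21866 post-treatment. That library was also the highest of its group for CD2, CD3D and CD3G, at 1.37, 0.50 and 0.50 CPM.

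ZAP70 was the one T cell gene well above the limit of detection in SM. It ran from 0.959 to 6.97 CPM pre-treatment with a median of 2.04 CPM, from 1.43 to 7.29 CPM post-treatment with a median of 1.99 CPM, and from 0.611 to 3.97 CPM at washout with a median of 1.53 CPM. The groups overlapped broadly, and animal 21866 was the highest post-treatment. Its log2 fold changes were -0.07 post-treatment (SE 0.37), -0.35 from post-treatment to washout (SE 0.35) and -0.42 from pre-treatment to washout (SE 0.36), and none was called.

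Levels of the tissues were compared after scaling over both tissues together. Of the 5 genes tested in both, 4 were called higher in AT pre-treatment, 4 post-treatment and 5 at washout. Of all genes 41.0%, 40.7% and 42.0% were called higher in AT at these time points, and 77.5%, 77.1% and 76.9% in either direction. Without the filter on low counts, 7, 7 and 8 of 8 were called, including CD3D (log2 fold changes of 3.06, 2.59 and 2.34), CD3G (2.46, 2.08 and 2.85) and CD247 (2.03, 1.64 and 2.42), all higher in AT.

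**Figure D5:**
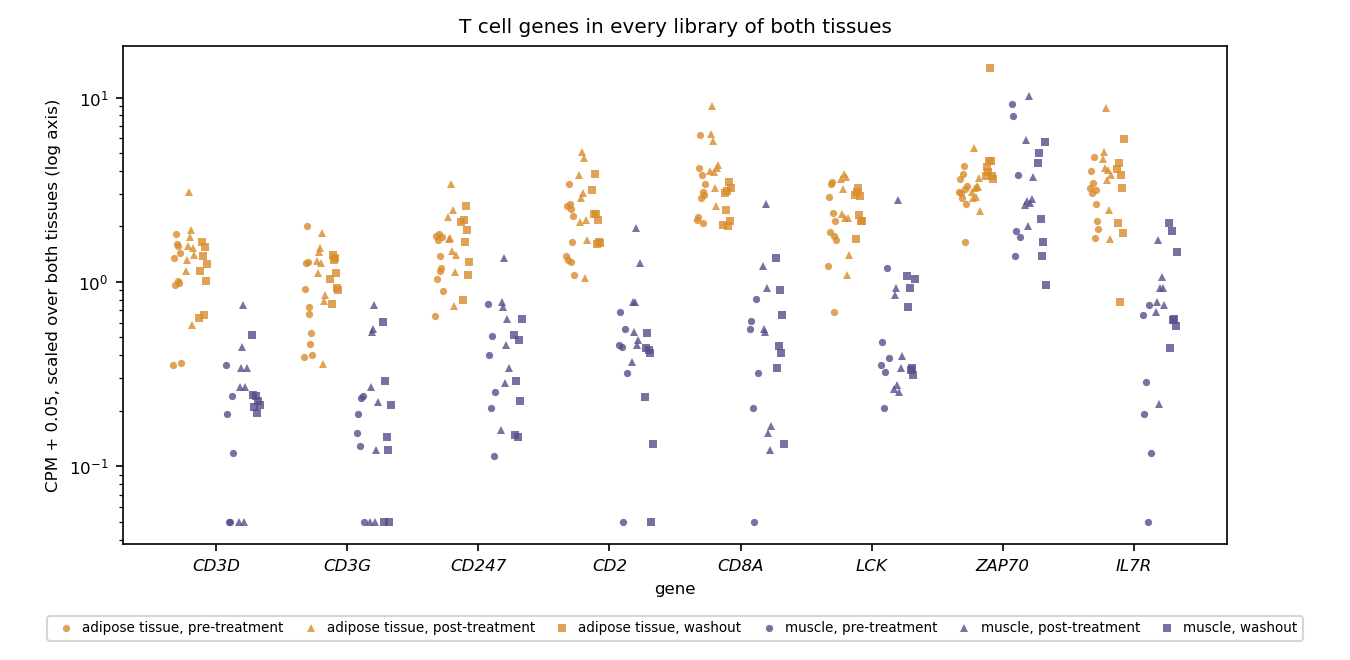
Level of each T cell gene in every library (vertical log axis, CPM scaled over both tissues, with 0.05 added so that zeros can be drawn), AT in orange and SM in purple, with a symbol for each time point. For CD8A the AT libraries began at 1.96 CPM and the SM libraries had a median of 0.484 CPM, while for ZAP70 the medians were 3.28 CPM in AT and 2.71 CPM in SM.

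On this common scale CD8A ran from 2.05 to 6.21 CPM in AT and from 0 to 0.759 CPM in SM pre-treatment, with medians of 2.97 and 0.389 CPM. The tissues did not overlap pre-treatment and overlapped by a single SM library post-treatment, that of animal 21189 at 2.58 CPM. CD8A was higher in AT by log2 fold changes of 3.05 (SE 0.49), 2.92 (SE 0.42) and 2.54 (SE 0.47) pre-treatment, post-treatment and at washout. IL7R ran from 1.69 to 4.74 CPM in AT and from 0 to 0.696 CPM in SM pre-treatment, with medians of 3.05 and 0.188 CPM and no overlap. Its difference was 3.30 (SE 0.50) pre-treatment, 2.30 (SE 0.40) post-treatment and 1.71 (SE 0.44) at washout.

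CD2 ran from 1.05 to 3.33 CPM in AT and from 0 to 0.635 CPM in SM pre-treatment, with medians of 1.91 and 0.399 CPM. It did not overlap between the tissues pre-treatment or at washout, and its differences were 2.17 (SE 0.42), 1.82 (SE 0.35) and 3.02 (SE 0.43). LCK had medians of 1.95 CPM in AT and 0.321 CPM in SM pre-treatment, with overlap of the lowest AT library (0.637 CPM) and the highest SM library (1.14 CPM). It was higher in AT by 1.92 (SE 0.46), 2.03 (SE 0.41) and 1.89 (SE 0.45). The edgeR adjusted p of these 4 genes was 0.000704 or less at each time point.

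ZAP70 was again apart. It ran from 1.60 to 4.23 CPM in AT and from 1.33 to 9.13 CPM in SM pre-treatment, with medians of 3.08 and 2.78 CPM, so that the SM libraries enclosed the AT libraries. The difference was -0.24 pre-treatment (SE 0.40, edgeR adjusted p = 0.586), -0.07 post-treatment (SE 0.36, edgeR adjusted p = 0.859) and 0.96 at washout (SE 0.40, edgeR adjusted p = 0.0305). The first 2 turn positive when libraries are scaled by their totals alone (0.44 and 0.58, not called), a scaling that raises the median of all genes by 0.72 and 0.69. The call at washout was lost without the washout AT library of animal 22130 (0.52, edgeR adjusted p = 0.195) and when animal 20456, 21189, 22130 or 24849 was left out (0.42 to 0.88).

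Over the 8 animals with both tissues, ZAP70 differed by -0.04 on the log2 CPM scale between AT and SM, and the other 7 T cell genes by 1.59 (CD247) to 2.83 (CD8A). Each of the 7 exceeded ZAP70 in 8 of 8 animals, by 1.63 to 2.88. ZAP70 was set apart after these values were seen, and CD3D, CD3G and CD247 did not pass the filter in SM, so that this is a description with no test. The excess over ZAP70 was 1.47 to 2.70 with library size alone as the scaling, 1.97 to 3.57 pre-treatment alone (6 animals) and 1.39 to 2.96 without the 2 libraries that stand apart in ZAP70 (7 animals).

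The time course was also compared between the tissues. Post-treatment, 0 of the 5 genes differed in their change between AT and SM, where edgeR called 0% of all genes (0 of the 5 had an unadjusted p under 0.05, and DESeq2 called none of them). From post-treatment to washout, 0 of 5 differed against 21.8% of all genes, and from pre-treatment to washout 0 of 5 against 16.1%, with 1 and 2 genes at an unadjusted p under 0.05. CD2 had a difference of 1.20 (SE 0.55, edgeR adjusted p = 0.113) from post-treatment to washout, which was called without animal 22130 (1.64). IL7R had a difference of -1.58 (SE 0.65, edgeR adjusted p = 0.0915) from pre-treatment to washout, which was called without animal 23004 (-2.25). ZAP70 had one of 1.20 (SE 0.54, edgeR adjusted p = 0.129) over the same span.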

How the data were processed

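RNA from snap-frozen biopsies was sequenced by the authors with a stranded mRNA kit as paired 50-base reads, aligned to the MacaM genome (STAR), and deposited for 48 libraries as whole-number counts per gene, not normalized. The counting tool and its use of strand are not given in the sources used here. Of 51 labelled samples, 3 of SM without counts were not analysed here. The table's 16103 entries gave 16033 genes after 70 repeats were dropped.

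Here, a gene was tested where 10% or more of a tissue's libraries reached 0.5 CPM, 13367 in AT and 12617 in SM, and 12322 passed in both. Scaling (TMM), log2 CPM (prior count 2) and robust quasi-likelihood tests, with time point and animal as terms, were done in edgeR 4.0.16 (R 4.3.3). P-values were adjusted by the Benjamini-Hochberg method over all genes tested. The study's own fits used voomWithQualityWeights, run here as an alternative with limma 3.58.1, as was DESeq2 1.42.0. Libraries were paired by the animal number in their labels. Correlations were tested with 100000 permutations in SciPy 1.17.1 (Python 3.11.15, NumPy 2.4.6, pandas 2.3.3, matplotlib 3.10.9). CD3D replaced CD3E in them after the table was seen. On simulated data with 200 of 13367 AT genes changed by a log2 fold change of 1.5, 187 were called along with 7 unchanged genes, and on 12617 SM genes 150 along with 7. The changed genes had a mean above 1 CPM, and no differences between animals were simulated. These numbers do not show how often changes as small as those of the T cell genes in AT would be called.

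The T cell genes and the lists of other genes were chosen with earlier results of these data known. Of each list, genes are named where they were among the 3 largest changes called at a mean of at least 1 CPM. LAT and PLCG1 meet this at washout against pre-treatment. Likeness was measured by Pearson's r of log2 CPM after removal of time point means. One gene that this rule names is not reported here. Symbols were taken from the table, and neighbouring genes from RefSeq by symbol for all 9. Library totals were 14455195 to 23940980 counts, at which 3 counts are 0.125 to 0.208 CPM. Intervals of counts cover counting error only.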

Additional observations from a re-analysis of the deposited data

Results flagged for a closer look

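Each T cell gene was screened in each of the 6 groups for a library far from the others by Dixon's criterion. The criterion flags about 1 in 20 groups by chance if values are normally distributed. CPM of low counts, which cannot fall below 0, need not be, so that this rate may not hold here. In all, 48 pairs of a gene and a group were screened, of which 9 had such a library. In AT, CD8A of animal 20456 stood high pre-treatment (7.74 CPM, next 5.22 CPM), IL7R of animal 21189 post-treatment (11.2 CPM, next 6.43 CPM), ZAP70 of animal 20456 post-treatment (6.73 CPM, next 4.62 CPM) and ZAP70 of animal 22130 at washout (18.2 CPM, next 5.67 CPM). In SM, LCK of animal 23004 stood high pre-treatment (0.839 CPM, next 0.316 CPM), CD8A of animal 21189 post-treatment (1.88 CPM, next 0.830 CPM), and LCK and ZAP70 of animal 21866 post-treatment (1.96 CPM, next 0.620 CPM, and 7.29 CPM, next 4.18 CPM). CD3D of animal 19832 stood high in SM at washout (0.326 CPM, next 0.138 CPM), on 5 reads. All 9 flagged values lay above their group, and ZAP70 gave 3 of the 9. The values of LCK and ZAP70 of animal 21866 came from the same library.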

How the results depend on the processing

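Of the 1202 values of single T cell genes recomputed under other settings, 1108 kept their direction and their side of the threshold, 21 lost a call, 7 gained one and 66 turned direction. Most of the values were uncalled in the reported fit, and staying uncalled with the same sign counts as kept. Of the 1202, 660 came from leaving out an animal. The call of CD8A from post-treatment to washout held under every setting run, those that left out an animal included.

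Among the counts of T cell genes called, that of AT post-treatment went from 1 to 0 without the animal as replicate block, and that of AT washout against post-treatment went from 1 to 2 with DESeq2, library size only, no replicate block and at least 10 counts in every library. That of AT washout against pre-treatment went from 1 to 0 with no filter on low counts, only the 2 time points compared, the identifier series as covariate and, chosen after the data were seen, without the washout AT library of animal 22130. Without the filter, also chosen after the data were seen, 7, 7 and 8 genes were called between the tissues. Leaving out 1 animal gave 0 to 1 (AT post-treatment), 1 to 2 and 0 to 1 (AT washout against post-treatment and pre-treatment), and 0 to 1 for both differences between the tissues at washout.

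Over all genes, the count in SM at washout against post-treatment (17) was 359 with DESeq2, 4 with library size only, 89 with no replicate block, 2 with only the 2 time points and 2390 with the series as covariate. Against pre-treatment (3) it was 674 with voomWithQualityWeights, 179 with DESeq2, 26 with no replicate block, 6 with at least 10 counts and 1278 with the series as covariate. The tissue difference in change was 2972 with voomWithQualityWeights for washout against pre-treatment (1981) and, post-treatment (0), 33 with DESeq2, 1 with no replicate block and 1 without the SM library of animal 21866. Leaving out 1 animal gave 665 to 2081 genes in AT post-treatment (665 without animal 22130), 0 to 21 and 0 to 14 in SM at washout against post-treatment and pre-treatment, and for the tissue differences 0 to 10 post-treatment, 1698 to 2814 and 1314 to 2075 at washout. Library size only moved the share of calls that were higher from 48.7 to 62.4% (AT washout against post-treatment), 60.7 to 79.4% (against pre-treatment), and for AT against SM from 52.9 to 77.5%, 52.7 to 77.9% and 54.7 to 83.2%, and for the tissue differences at washout from 54.1 to 77.8% and 52.4 to 74.2%. DESeq2 moved it in SM at washout from 94.1 to 59.3% and from 100 to 86.6%.

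The values that turned direction were uncalled before and after, and the causes were not tested. With voomWithQualityWeights they were CD3G (-0.0058) and CD247 (0.034) in AT at washout against post-treatment, CD3D (-0.14) against pre-treatment, CD8A (0.30) and ZAP70 (0.026) in SM at washout against post-treatment, and the tissue differences of CD8A (0.28) and LCK (-0.21) post-treatment. With library size only they were CD247 (0.0081) in AT at washout against post-treatment, ZAP70 (0.015) in SM post-treatment, ZAP70 between tissues (0.44 and 0.58) and LCK in the tissue differences at washout (0.14 and 0.23). With no replicate block they were CD3G (-0.10) and LCK (-0.050) in AT at washout against post-treatment, LCK in SM post-treatment (0.64) and at washout (-0.23), and its tissue differences post-treatment (-0.39) and from post-treatment to washout (0.18). The others were CD3D in AT at washout against pre-treatment with no filter (-0.0029), CD8A in SM with only 2 time points (0.011), and with the series as covariate CD247 (0.094), CD3D (-0.036) and IL7R (-0.10) in AT at washout and LCK (0.12) and CD8A (-0.0046) in SM. Without the SM library of animal 21866, ZAP70 was 0.21 between the tissues post-treatment and the tissue difference of LCK 0.024 at washout against pre-treatment.

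Leaving out 1 animal, the values that could turn direction ranged in AT post-treatment from -0.021 to 0.17 for ZAP70. At washout against post-treatment they ranged from -0.10 to 0.19 for CD3G, -0.24 to 0.066 for CD247 and -0.11 to 0.19 for LCK, and against pre-treatment from -0.18 to 0.14 for CD3D and -0.14 to 0.20 for IL7R. In SM they ranged post-treatment from -0.32 to 0.98 for CD8A, -0.52 to 0.27 for LCK and -0.33 to 0.28 for ZAP70, and at washout from -0.34 to 0.41 and -0.026 to 0.64 for CD8A. Between tissues ZAP70 ranged from -0.60 to 0.071 pre-treatment and -0.26 to 0.24 post-treatment. The tissue differences ranged post-treatment from -0.56 to 0.010 for CD2, -0.63 to 0.66 for CD8A, -0.50 to 0.65 for LCK and -0.25 to 0.44 for ZAP70, and at washout from -0.64 to 0.18 and -0.82 to 0.28 for LCK.

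CD3D, CD3G and CD247 had at most 23 reads in an SM library and were not tested there in the reported fit.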
